A study of Mus musculus with 6 samples.

Results

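Transcripts of 10 ETS transcription factor genes, Elf5, Elf3, Ehf, Spdef, Elf1, Ets1, Ets2, Etv4, Etv5 and Etv6, were followed in sorted mouse mammary cells with and without Sox9. The genes were taken by symbol from the annotation of the array, which gave each of them 1 probe set, among 22206 probe sets that were not array controls. RNA came from ER-negative luminal cells of 6 young adult females in diestrus, sorted as EpCAM-high, CD49f-low, Sca1-negative cells that lacked lineage markers. The WT group (n = 3) consisted of Sox9Fl/Fl animals, so their Sox9 alleles were floxed but intact, and they had no Cre. The Sox9 KO group (n = 3) carried the same floxed alleles and MMTV-iCre, a transgene in which a mammary tumour virus promoter drives Cre and which includes an ECFP reporter that Cre switches on. From these animals only ECFP+ cells were taken. Each animal was processed as its own sample, and the mice were of mixed C57BL/6J and FVB/NJ background. Since WT cells had neither the transgene nor the ECFP gate, loss of Sox9, Cre and the gate cannot be told apart.

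ETS factors share a winged helix-turn-helix domain that binds DNA around a GGAA core, and they differ in the cells that express them and in the signals that reach them. Elf5, Elf3, Ehf and Spdef belong to the branch found mainly in epithelia. In the mammary gland Elf5 drives the differentiation of milk-producing alveolar cells, downstream of prolactin and together with Stat5, and it marks the ER-negative luminal lineage. Ets1, Ets2 and the PEA3 group (Etv4 and Etv5) respond to growth factor signals through the ERK kinases, Elf1 is expressed in many tissues, and Etv6 is a repressor.

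Values are log2 array signals as deposited, so a difference of 1 is a 2-fold difference in signal, and a negative difference means a lower signal in Sox9 KO. Standard errors (SE) are those of a limma fit across all probe sets. Pairs of arrays correlated between 0.967 and 0.988 across probe sets. The lowest values, 0.967 to 0.972, were those of Sox9 KO replicate 1 with the WT arrays and with Sox9 KO replicate 3. Sox9 itself was 11.60, 11.54 and 11.47 in WT and 6.73, 7.84 and 7.51 in Sox9 KO, and lay below the background bar on every Sox9 KO array, which puts the signal at least 11.6-fold lower (adjusted p = 0.00867, limma). The bar was the 95th percentile of 5222 negative control probe sets, between 7.75 and 8.58 on the 6 arrays. It is strict, since 20.8% to 29.6% of the probe sets lay above it on any 1 array. Of 8 markers of ER-negative luminal cells, 5 lay above the bar on all arrays, as did all 8 luminal keratins and junction genes. Of these 5, Kit, Cd14 and Sox10 overlapped between the genotypes, whereas Aldh1a3 (difference -1.08) and Itga2 (-0.98) were lower in Sox9 KO without overlap, and Gabrp of the same list was higher (1.96), each at an unadjusted p under 0.05 in limma. At that level 4.99% of all probe sets were lower and 4.28% higher. Without overlap, 7.3% were lower and 6.85% higher. Of the 8 keratins and junction genes, 6 had a negative and 2 a positive difference (median -0.23). The genotypes did not overlap for 4 of them, all lower in Sox9 KO, as for 7.3% of all probe sets. Epcam (-0.42) and Cldn4 (-0.91) were lower at an unadjusted p under 0.05 in limma, as were 4.99% of all probe sets. All 7 endothelial, 6 measured T and NK cell, 3 measured B cell and 5 measured myeloid markers were below the bar on every array. Of 9 basal markers, 3 were higher in Sox9 KO without overlap at an unadjusted p under 0.05 in limma, Krt14 (difference 2.57), Trp63 (1.99) and Krt17 (1.15), while 5 were below the bar everywhere. Over all probe sets, 4.28% were higher at that level and 6.85% were higher without overlap. The basal list stood between -0.51 and 0.20 from its WT mean on the WT arrays and between 0.07 and 0.60 on the Sox9 KO arrays, and its part in the ETS differences was not tested. All 7 measured proliferation markers had a positive difference (median 1.55). For 1 of them, Mcm6 (1.45, unadjusted p = 0.00815 in limma), the genotypes did not overlap, as for 6.85% of all probe sets in that direction. The proliferation list stood 3.37, 1.20 and 0.14 above its WT mean on Sox9 KO replicates 1 to 3 and 0.71, -0.28 and -0.44 from it on the WT arrays. Fibroblast markers were highest on Sox9 KO replicate 3 (1.36 above the WT mean, median of 5 genes).

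Ets1 and Elf3 were lower in the Sox9 KO cells, though neither passed the test over all probe sets, while Elf5, the ETS factor most tied to this lineage, had means of 8.90 in WT and 8.91 in Sox9 KO. No other member reached an unadjusted p under 0.05, and Ehf had the largest positive difference of the 10. At an adjusted p under 0.05, limma called 0 of the 10 members, against 0.00901% of all probe sets (2 of 22206). At an unadjusted p under 0.05 there were 2 of 10, Ets1 and Elf3, where 9.26% of all probe sets reached this level, and both were lower. Over all probe sets, 4.99% were lower and 4.28% higher at that level. The genotypes did not overlap for the same 2 members and for 14.1% of all probe sets. In the lower direction that was 2 of 10 against 7.3%, and in the higher direction 0 of 10 against 6.85%. Counts this small lie close to the background. By sign alone, 6 members had a negative difference and 4 a positive one. Their median was -0.13, beside a median of 0.01 and 48.2% lower over all probe sets.

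**Figure D1:**
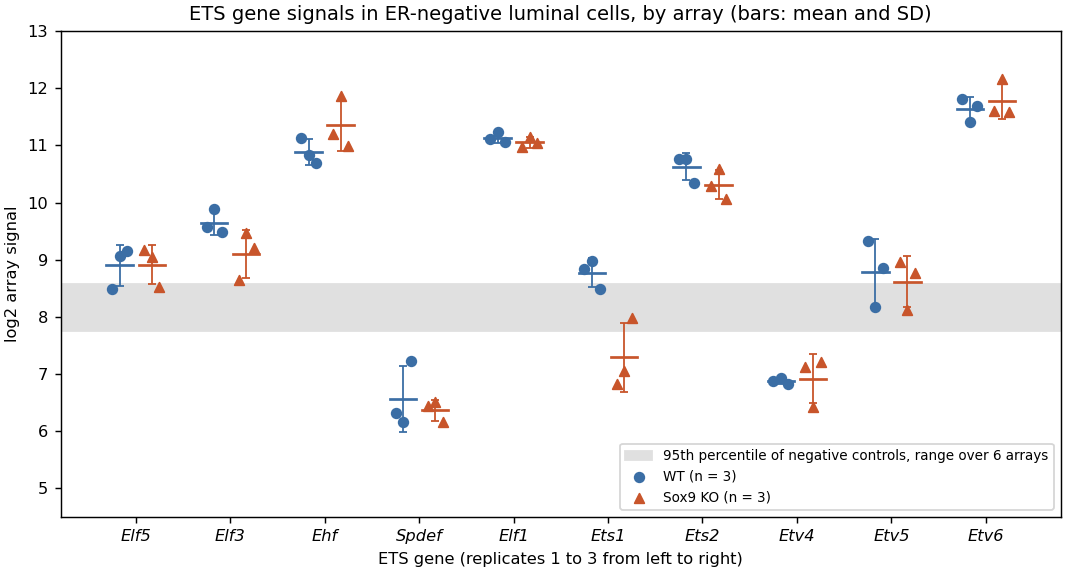
Log2 array signal (y axis) of the 10 ETS genes (x axis) on each of 3 WT arrays (blue circles) and 3 Sox9 KO arrays (orange triangles), with mean and SD as bars. The grey band spans the 95th percentile of the negative controls over the 6 arrays, 7.75 to 8.58. Ets1 stands above the band in WT except for replicate 3, inside it at 8.49, and below or within it in Sox9 KO, whereas Elf5 overlaps between the genotypes. Heights are not comparable between genes, since each has its own probes.

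Ets1, which in other settings acts in lymphocyte development, blood vessel growth and invasion, showed the largest difference of the 10. Its signal was 8.84, 8.98 and 8.49 in WT replicates 1 to 3 and 6.83, 7.06 and 7.98 in Sox9 KO replicates 1 to 3. All Sox9 KO values lay below the lowest WT value, with Sox9 KO replicate 3 the nearest to it. The means were 8.77 ± 0.25 and 7.29 ± 0.61 (SD, n = 3 each), a difference of -1.48 (SE 0.30, 95% interval -2.17 to -0.79), or 2.79-fold in signal. A difference of this size or larger was found for 112 probe sets, 0.504% of those tested. The unadjusted p was 0.00122 and the adjusted p was 0.214 in limma, so Ets1 did not pass over all probe sets. On the WT arrays the signal exceeded 96.2% to 97.5% of the negative controls. On Sox9 KO replicates 1, 2 and 3 it exceeded 84.8%, 87.4% and 96%, so only replicate 3 lay above the bar, and the 2.79-fold value depends on signals near background. The bar itself was lower on Sox9 KO replicate 3 (7.75) than on replicates 1 and 2 (8.11 and 8.15). In bulk RNA of this kind, fewer cells with the transcript and less transcript per cell cannot be told apart. The difference kept its direction without any 1 array (-1.82 to -1.25), and the adjusted p was 0.0442 without Sox9 KO replicate 3 and between 0.306 and 0.696 without any other. Sox9 KO replicate 3, the highest of its group, was also the array with the highest fibroblast list (1.36 above the WT mean). The same held for the T and NK cell list (0.44) and the myeloid list (0.42). On that array the endothelial list (0.42) was the highest of the Sox9 KO arrays, below that of WT replicate 1 (0.67). All 6 T and NK cell, 5 measured myeloid and 7 endothelial markers and 3 of 5 fibroblast markers were below the bar on all arrays. The other fibroblast markers, Dcn (10.56) and Col1a1 (8.15), were above it on Sox9 KO replicate 3, and Dcn also on WT replicate 1 (9.60). The part of these lists in the Ets1 value was not tested.

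Ets2, the close relative of Ets1 and like it a target of ERK phosphorylation, had signals of 10.76, 10.77 and 10.35 in WT and 10.29, 10.59 and 10.07 in Sox9 KO. The groups overlapped, because Sox9 KO replicate 2 lay above WT replicate 3. The difference of -0.31 (SE 0.19, 95% interval -0.75 to 0.13) had an unadjusted p of 0.14 in limma. All 6 values were above the bar.

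Elf3, an epithelial factor that inflammatory cytokines induce through NF-kB in human cells, was the other member whose groups did not overlap. WT replicates 1 to 3 had signals of 9.57, 9.89 and 9.49 and Sox9 KO replicates 1 to 3 had 8.64, 9.46 and 9.21. The separation was narrow, since Sox9 KO replicate 2 (9.46) and WT replicate 3 (9.49) were almost equal, and Sox9 KO replicate 1 was the lowest of all. The means of 9.65 ± 0.21 and 9.10 ± 0.42 (SD, n = 3 each) gave a difference of -0.55 (SE 0.23, 95% interval -1.08 to -0.02) and a 1.46-fold lower signal. The unadjusted p was 0.0447 and the adjusted p was 0.527 in limma. Without Sox9 KO replicate 1 the difference was -0.32 with an unadjusted p of 0.13 in limma, and without Sox9 KO replicate 2 it was -0.72. The unadjusted p of Elf3 was under 0.05 in 6 of 14 alternatives. Sox9 KO replicate 1 is the array with the highest proliferation markers, whose part in the Elf3 value was not tested.

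The promoters of Elf3 and Elf5 are shown as examples of epithelial members, picked by their values. Elf3 was lower in Sox9 KO at an unadjusted p under 0.05 in limma, and Elf5 had nearly equal means. Promoter windows of 300 bases, 250 before to 50 after a transcription start, were available from RefSeq (GRCm38.p6) for 7 of the 10 members, with 10 windows in all. Ehf, Ets1 and Etv4 had none. Capitals mark the ETS core GGAA or its complement TTCC.

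Elf3, chr1:135258423-135258722, minus strand: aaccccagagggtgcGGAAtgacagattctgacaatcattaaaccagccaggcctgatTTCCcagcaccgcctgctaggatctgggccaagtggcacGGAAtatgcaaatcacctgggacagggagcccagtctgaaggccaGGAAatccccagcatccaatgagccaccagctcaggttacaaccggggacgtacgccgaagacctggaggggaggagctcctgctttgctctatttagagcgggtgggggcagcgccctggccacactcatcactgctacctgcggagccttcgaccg
Elf5, first start, chr2:103411848-103412147, plus strand: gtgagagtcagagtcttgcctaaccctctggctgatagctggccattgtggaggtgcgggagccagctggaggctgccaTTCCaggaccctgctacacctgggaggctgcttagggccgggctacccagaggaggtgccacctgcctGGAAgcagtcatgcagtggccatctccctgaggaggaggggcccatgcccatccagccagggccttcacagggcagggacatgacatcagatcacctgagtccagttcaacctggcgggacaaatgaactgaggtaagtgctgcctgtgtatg
Elf5, second start, chr2:103423818-103424117, plus strand: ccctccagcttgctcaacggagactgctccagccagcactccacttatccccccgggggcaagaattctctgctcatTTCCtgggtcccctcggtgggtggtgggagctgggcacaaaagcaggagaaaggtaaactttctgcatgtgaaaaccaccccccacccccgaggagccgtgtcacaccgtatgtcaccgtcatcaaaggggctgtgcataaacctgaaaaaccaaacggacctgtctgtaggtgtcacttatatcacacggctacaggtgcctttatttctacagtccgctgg

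The ETS core occurred 4 times in the Elf3 window, 2 times at the first Elf5 start and 1 time at the second. This is a common word: 96% of 32851 windows of this length held it on either strand, with a median of 3. Among the other windows it occurred 7 times in Spdef and 6 times in Etv6, while 1 of the Etv5 windows had 6 and the other 0. The longer ETS word CCGGAAG, in 8.86% of all windows on either strand, and the SOX word AACAAT, in 10.7%, were in none of the 10. The NF-kB consensus, searched on both strands and present in 8.46% of all windows, matched 1 of the 10, at position -108 from the start of Elf3 (GGAAATCCCC). This match overlaps 1 of the 4 ETS cores of that window. These are matches of letters in a window and say nothing on binding in these cells.

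Ehf, an epithelial factor closely related to Elf3, went the other way in the point estimate. Signals were 11.13, 10.83 and 10.69 in WT and 11.20, 11.86 and 10.99 in Sox9 KO. WT replicate 1 lay above Sox9 KO replicate 3, so the groups overlapped, and Sox9 KO replicate 2 was far above the rest. The means were 10.88 ± 0.22 and 11.35 ± 0.45 (SD, n = 3 each) and the difference was 0.47 (SE 0.24, 95% interval -0.09 to 1.03, unadjusted p = 0.0905 in limma). Without Sox9 KO replicate 2 it was 0.21, and without Sox9 KO replicate 3 it was 0.65.

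Elf5 differed more between animals of 1 genotype than between the genotype means. Signals were 8.49, 9.07 and 9.15 in WT and 9.17, 9.04 and 8.52 in Sox9 KO. The lowest value of each genotype was nearly the same (8.49 in WT replicate 1, 8.52 in Sox9 KO replicate 3), and the other 4 arrays lay between 9.04 and 9.17. The difference was 0.01 (SE 0.24, 95% interval -0.55 to 0.56, adjusted p = 0.996 in limma), and its sign turned to -0.035 with median centring. An interval of this width does not show that the levels were equal. WT replicate 1 was the only array on which Elf5 lay below the bar.

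Across the animals Elf5 ran with 3 of the 7 milk genes, the caseins Csn1s1, Csn1s2a and Csn2. In the order of Elf5 from low to high (WT replicate 1, Sox9 KO replicates 3 and 2, WT replicates 2 and 3, Sox9 KO replicate 1), the signal of Csn2, which encodes beta-casein, was 5.54, 10.42, 11.10, 11.55, 12.49 and 12.53. The alpha-casein genes Csn1s1 (6.63, 8.78, 10.14, 10.69, 10.74 and 11.02) and Csn1s2a (7.51, 11.06, 11.65, 12.35, 13.13 and 13.15) followed the same order on all 6 arrays. Pearson's r with Elf5 was 0.819 for Csn2, 0.85 for Csn1s2a and 0.923 for Csn1s1, each with an exact permutation p of 0.00139, and Spearman's rho was 1 for all of them, with an exact permutation p of 0.00278. These are the smallest p values that 720 orders of 6 arrays can give. Adjusted over the 12 relations examined, they were 0.00556 and 0.0111. The relation was noticed in the values and then computed on the same arrays, so these p values describe the pattern and are not a test of it. The order was not particular to milk genes, since the deubiquitinase gene Bap1 also had a Spearman's rho of 1 with Elf5. Among 5159 named probe sets with a mean above the mean bar, 28 had a Pearson's r over 0.9 with Elf5.

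Elf5 split the arrays into 2 low and 4 high ones, so r was also taken without WT replicate 1 and Sox9 KO replicate 3, the arrays farthest from the median of Elf5. Over the remaining 4 arrays it was 0.992 for Csn2, 0.971 for Csn1s2a and 0.869 for Csn1s1, but with so few arrays it was also 0.996 for Glycam1, a gene below the bar on every array. Wap, the whey acidic protein gene, had a Pearson's r of 0.816 (exact permutation p = 0.0764, adjusted 0.131) and a Spearman's rho of 0.886 (exact permutation p = 0.0333, adjusted 0.1). Over all 6 arrays r was -0.188 for Csn3, which encodes kappa-casein, 0.119 for the alpha-lactalbumin gene Lalba and 0.147 for Glycam1, with exact permutation p values from 0.754 to 0.789. WT replicate 1 and Sox9 KO replicate 3 also had the highest endothelial lists (0.67 and 0.42 against the WT mean, from -0.55 to -0.19 on the others) and the highest fibroblast lists (0.34 and 1.36, from -0.26 to 0.02 on the others). All 7 endothelial markers were below the bar on every array. The fibroblast marker Dcn was 9.60 on WT replicate 1 and 10.56 on Sox9 KO replicate 3, and above the bar on no other array. The part of these markers in the Elf5 and casein values was not tested.

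**Figure D2:**
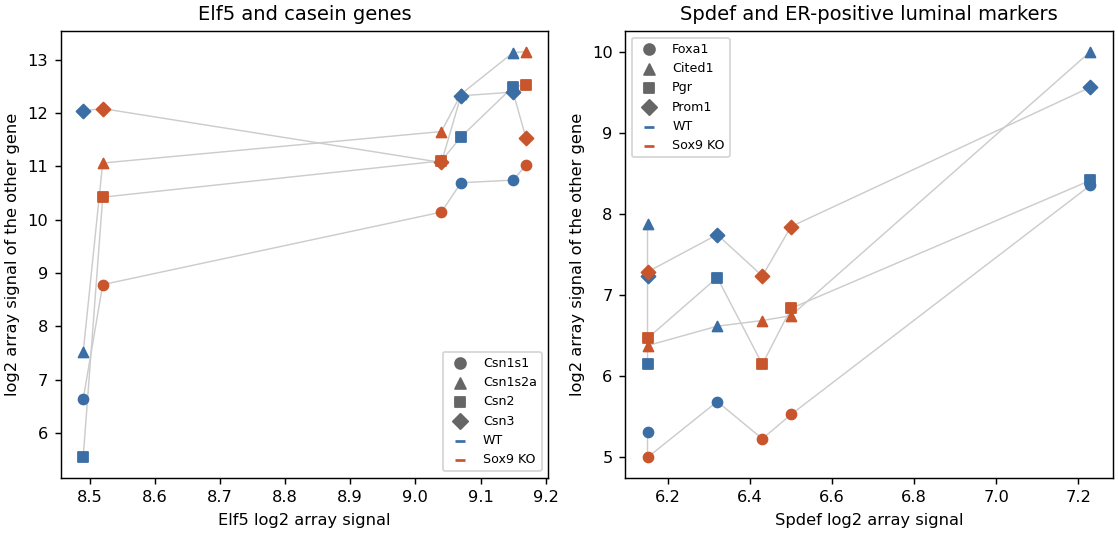
Log2 array signal of 4 casein genes against Elf5 (left) and of 4 ER-positive luminal markers against Spdef (right), 1 point for each gene on each of 3 WT (blue) and 3 Sox9 KO (orange) arrays, with grey lines joining the points of a gene. Csn1s1, Csn1s2a and Csn2 increase with Elf5 across both genotypes while Csn3 does not. The high values on the right belong to 1 array, WT replicate 3, with a Spdef signal of 7.23.

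Spdef, which directs secretory cell differentiation in airway and gut and marks hormone-sensing luminal cells in the mammary gland, was dim in this ER-negative sort. Signals were 6.32, 6.15 and 7.23 in WT and 6.43, 6.50 and 6.15 in Sox9 KO, all below the bar, so no fold is given (difference -0.21, SE 0.28, adjusted p = 0.864 in limma). WT replicate 3 alone stood out. That array also had the highest values of the ER-positive luminal markers Foxa1 (8.35, against 4.99 to 5.68 on the others), Cited1 (above the range of 6.37 to 7.87 on the others), Pgr (8.41, against 6.14 to 7.21) and Prom1 (9.56, against 7.23 to 7.84), though Esr1 was 6.35 there and 6.63 on Sox9 KO replicate 3. Over 6 arrays Pearson's r of Spdef was 0.955 with Prom1, 0.951 with Foxa1, 0.872 with Pgr, 0.819 with Cited1 and 0.218 with Esr1, and none passed an exact permutation test after adjustment (adjusted p from 0.075 to 0.789). Over the 4 arrays left without WT replicates 2 and 3, r was 0.463, 0.548, 0.035, 0.984 and -0.668 in the same order. Sox9 KO replicate 3 had the same Spdef signal as WT replicate 2 (6.15), and r without it instead was not computed. Without WT replicate 3 the Spdef difference was 0.12, and no direction can be drawn from it. Of 8 reported targets of SPDEF, all were below the bar on every array, with differences from -0.15 to 0.15 and 0 at an unadjusted p under 0.05 in limma.

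Etv4 and Etv5, which FGF and EGF receptor signalling induces through ERK, gave no separation of the genotypes. Etv4 was below the bar on all arrays (6.87, 6.93 and 6.82 in WT and 7.13, 6.42 and 7.21 in Sox9 KO). The Sox9 KO values lay on both sides of the WT values. Etv5 was 9.33, 8.17 and 8.86 in WT and 8.96, 8.12 and 8.77 in Sox9 KO, with replicate 2 the lowest of both groups. Its within-group SD of 0.52 was larger than that of 94.2% of the probe sets, and the difference of -0.17 (SE 0.33, 95% interval -0.93 to 0.59) changed sign without WT replicate 1 (0.10) and without Sox9 KO replicate 2 (0.08). Labels give no batch or day for the replicate numbers.

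Elf1 and Etv6 were well above the bar on every array. Elf1, a broadly expressed activator, was the steadiest member, with signals of 11.11, 11.24 and 11.06 in WT and 10.97, 11.15 and 11.04 in Sox9 KO. Its within-group SD of 0.09 was larger than that of 6.83% of the probe sets, and the difference of -0.08 (SE 0.13, 95% interval -0.38 to 0.22) had the narrowest interval of the 10. Etv6, a repressor needed in blood stem cells, was 11.82, 11.41 and 11.69 in WT and 11.61, 12.16 and 11.58 in Sox9 KO (difference 0.14, SE 0.20, 95% interval -0.32 to 0.61). Sox9 KO replicate 2 was the highest for both Etv6 and Ehf.

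**Figure D3:**
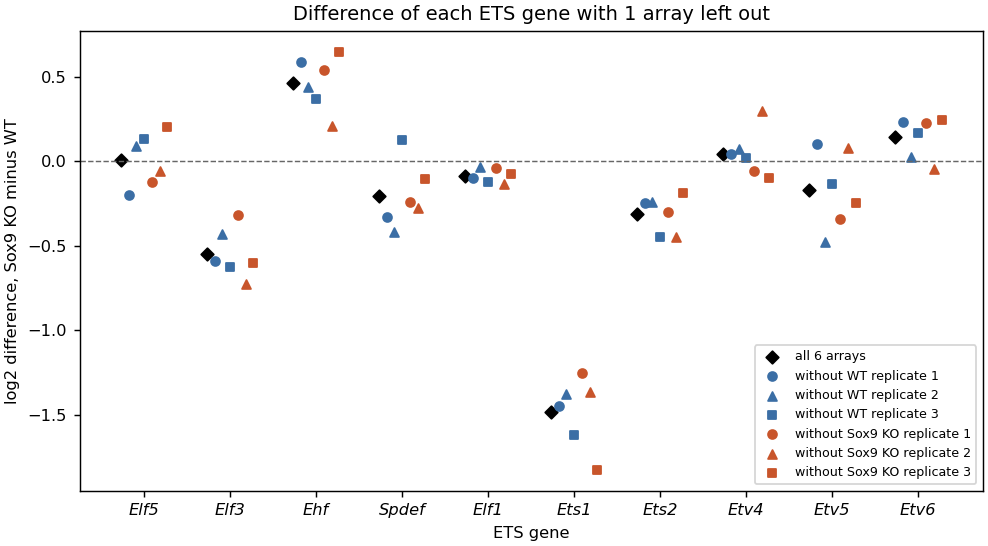
Log2 difference between Sox9 KO and WT (y axis) for each of the 10 ETS genes (x axis), with all 6 arrays (black diamonds) and with 1 WT (blue) or 1 Sox9 KO (orange) array left out. Ets1 stays between -1.82 and -1.25, Elf3 between -0.72 and -0.32 and Ehf between 0.21 and 0.65, while Elf5, Spdef, Etv4, Etv5 and Etv6 cross 0.

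Of 17 other ETS genes, 15 were measured under their symbol, and 10 of these were below the bar on every array, among them the factors of blood and vessel cells Spi1, Spib, Fli1 and Erg. At an unadjusted p under 0.05 there were 0 of 15, where 9.26% of all probe sets reached this level. The differences were negative for 9 and positive for 6 (median -0.09). The genotypes did not overlap for 1 of the 15, Elk4, a partner of SRF, and for 14.1% of all probe sets. Elk4 was 8.81, 8.65 and 8.64 in WT and 8.51, 8.48 and 8.35 in Sox9 KO (difference -0.25, SE 0.13). The smallest unadjusted p was that of Etv3, a repressor related to Erf, with 8.31, 8.82 and 9.06 in WT and 7.88, 8.32 and 8.40 in Sox9 KO (difference -0.53, SE 0.23, unadjusted p = 0.0511 in limma). Across the 25 measured ETS genes, 2 reached an unadjusted p under 0.05, against 9.26% of all probe sets. Both were from the luminal list, and counts this small lie close to the background. Of the 25, 12 were below the bar everywhere.

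**Figure D4:**
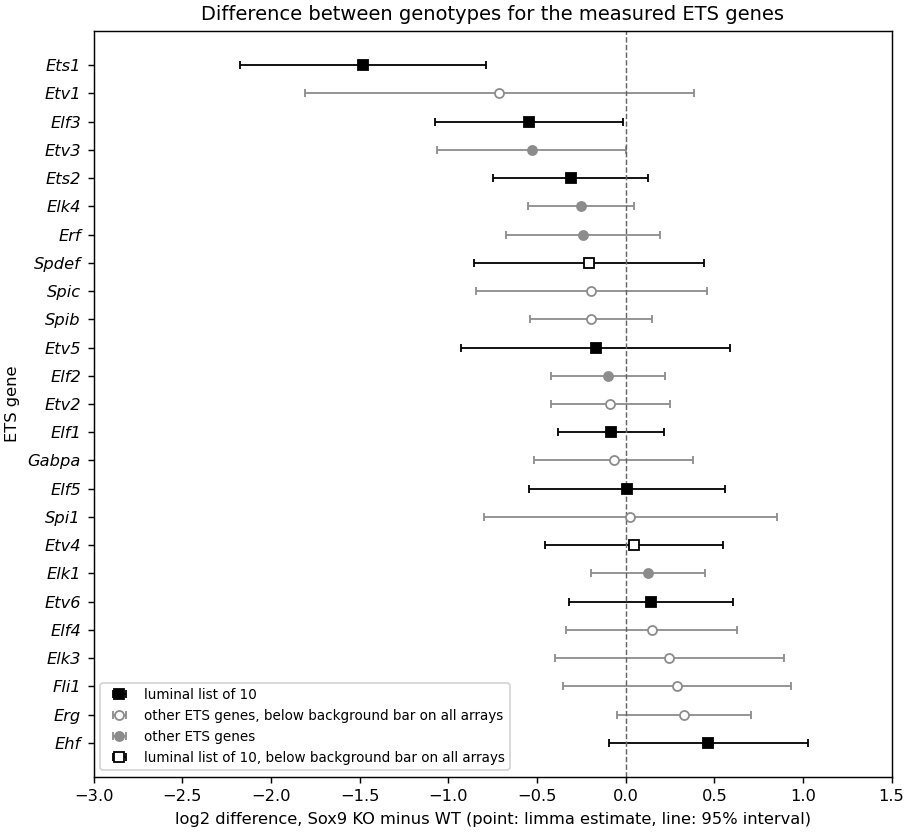
Log2 difference between Sox9 KO and WT (x axis) with its 95% interval for the 25 measured ETS genes (y axis), ordered by the difference. Black squares are the 10 luminal ETS genes, grey circles the 15 others, and open symbols mark genes below the background bar on all 6 arrays. The interval excludes 0 for Ets1 (-2.17 to -0.79) and, narrowly, for Elf3 (-1.08 to -0.02).

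Gabpb1 and Srf were the partners of ETS factors with the lowest p. Of 12 partners and regulators measured out of 15, 2 were lower and 0 higher at an unadjusted p under 0.05, where 4.99% and 4.28% of all probe sets were, and 0 passed over all probe sets (median difference -0.09). Gabpb1 encodes the subunit that gives the ETS factor Gabpa its activation domain. It was 9.01, 8.98 and 8.63 in WT and 8.26, 8.01 and 7.98 in Sox9 KO, with no overlap (difference -0.79, SE 0.16, unadjusted p = 0.00128, adjusted p = 0.214 in limma). Gabpa itself was below the bar on every array. Srf, the DNA-binding partner of Elk1, Elk3 and Elk4, was 9.09, 9.90 and 9.34 in WT and 8.36, 9.04 and 8.64 in Sox9 KO (difference -0.76, SE 0.25, unadjusted p = 0.0172, adjusted p = 0.416). Runx1, which binds DNA together with Ets1, differed by -0.27 (SE 0.19), and Stat5a, which works with Elf5 on milk genes, by 0.10, neither at an unadjusted p under 0.05 in limma.

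Among 13 measured ERK feedback and output genes, the difference was negative for 10 and positive for 3 (median -0.21), beside 48.2% negative over all probe sets. At an unadjusted p under 0.05, 2 were lower and 1 higher, against 4.99% and 4.28% of all probe sets. The ephrin receptor gene Epha2 was 11.36, 11.27 and 11.12 in WT and 9.85, 10.51 and 10.49 in Sox9 KO (difference -0.97, SE 0.20, adjusted p = 0.222 in limma), and Spry2, an inhibitor of the pathway, differed by -0.52 (SE 0.18). The related Epha4 ran opposite, from 7.46, 6.79 and 6.85 to 8.34, 8.99 and 7.96 (difference 1.40, SE 0.29, adjusted p = 0.222), and as all WT values were below the bar the signal was at least 1.11-fold higher. Dusp6, a phosphatase that acts on ERK, differed by -0.02 (unadjusted p = 0.936 in limma). Without WT replicate 2 the list median was -0.47, and without Sox9 KO replicate 3 the number at an unadjusted p under 0.05 was 5.

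Of 11 genes reported as targets of ELF3, mostly in human cells, 8 had a negative and 2 a positive difference (median -0.13), and 1 was at an unadjusted p under 0.05, as were 9.26% of all probe sets. This was Ptgs2, the inducible prostaglandin synthase, with 7.16, 7.90 and 8.68 in WT and 5.40, 5.76 and 7.15 in Sox9 KO (difference -1.81, SE 0.51, adjusted p = 0.361 in limma). It was above the bar on 1 WT array and on 0 Sox9 KO arrays. Lcn2, the iron-sequestering lipocalin, was 13.14, 13.23 and 13.22 in WT and 12.64, 12.94 and 13.04 in Sox9 KO, without overlap (difference -0.32, SE 0.15, unadjusted p = 0.0611 in limma). Without Sox9 KO replicate 3, 4 of the 11 were at an unadjusted p under 0.05. The 9.26% belongs to the fit of all 6 arrays, and the share in this other fit is not given here. So that count cannot be set against a background.

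Of 7 protease pathway genes reported downstream of ETS1, ETS2 or the PEA3 group, 2 were lower and 2 higher at an unadjusted p under 0.05, against 4.99% and 4.28% of all probe sets. The lower ones were Plaur, the urokinase receptor (10.30, 10.78 and 10.13 in WT, 8.57, 9.67 and 9.90 in Sox9 KO, difference -1.02, SE 0.35), and the protease inhibitor gene Timp1 (difference -0.64, SE 0.24). The Plaur difference was -0.62 without Sox9 KO replicate 1. The higher ones, Mmp3 and Mmp7, were below the bar on every array. The number at an unadjusted p under 0.05 was 0 without WT replicate 2. In that fit the share over all probe sets was also lower, 5.63% against 9.26% with all 6 arrays.

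Of the 7 milk genes, 1 was at an unadjusted p under 0.05 (9.26% of all probe sets), Csn3, with 12.04, 12.32 and 12.39 in WT and 11.52, 11.07 and 12.08 in Sox9 KO (difference -0.69, SE 0.25, adjusted p = 0.464 in limma). The groups overlapped, since Sox9 KO replicate 3 lay above WT replicate 1. The list median was 0.05, but -0.73 without WT replicate 1, the array low in Elf5 and in the caseins, and 0.40 without Sox9 KO replicate 2. No direction of this list held across the arrays left out.

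**Figure D5:**
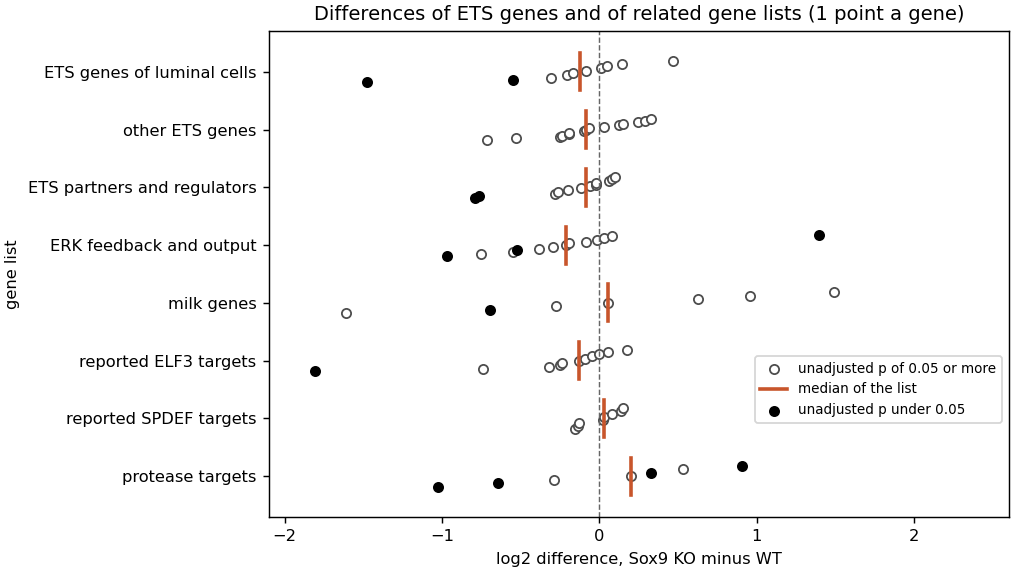
Log2 difference between Sox9 KO and WT (x axis) for every measured gene (1 point each) of 8 gene lists (y axis), with filled points at an unadjusted p under 0.05 and an orange line at the list median. Medians lie between -0.21 and 0.20, and the lowest point of its own list is Ets1 (-1.48) for the luminal ETS genes, Lalba (-1.61) for the milk genes and Ptgs2 (-1.81) for the reported ELF3 targets.

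The genes whose 6 values were most like those of Elf5 and Elf3 were taken from 5159 named probe sets whose mean lay above the mean bar. For Elf5 they were Dclre1b, a DNA repair nuclease (r = 0.969), the deubiquitinase gene Bap1 (0.964) and Chmp1b, of the membrane scission machinery (0.964), with genotype differences of -0.04, 0.06 and 0.08. Bap1 followed the order of Elf5 on all 6 arrays (Spearman's rho of 1), as the 3 caseins did. For Elf3 they were Flnc, which encodes filamin C (0.999), Cish, an inhibitor of cytokine signalling (0.993), and F3, the tissue factor gene (0.99), with differences of -0.42, -0.62 and -0.79. Correlations over 0.9 with Elf5 were found for 28 genes and with Elf3 for 161. They are descriptions over 6 arrays that share their animals and sorts, and so many candidates bring high values for any gene.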

How the data were processed

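RNA of sorted ER-negative luminal cells was measured on Affymetrix Clariom S Pico mouse arrays, 3 WT and 3 Sox9 KO, 1 for each animal. The authors used Expression Console and Transcriptome Analysis Console and deposited log2 values, a scale judged from their range. How background correction, normalization and summary were done is not stated in the sources used here. Low signals are compressed towards background, and precision is limited by how many arrays there are.

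Of 28846 probe sets, 6640 array controls were left out. Among the 22206 tested, 19572 had 1 gene symbol in the platform annotation, updated against RefSeq, and 2634 are unnamed here. The comparison used limma 3.58.1 (R 4.3.3) with no covariates and two-sided p values, which were adjusted by Benjamini-Hochberg across the tested probe sets (threshold 0.05). Relations across arrays used exact two-sided permutation tests, adjusted over 12 relations. Where all arrays of 1 group lay below the bar, the fold is a bound set against the bar.

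The members and gene lists were chosen with earlier results of these data known. The text names all members, up to 4 genes of each list with the smallest p, and the 3 genes most like Elf5 and Elf3. Other named genes (milk genes, Dusp6, Stat5a, Gabpa, blood and vessel ETS factors, cell type markers) were chosen after their values were seen. The fit was tested on simulated data. The alternatives tried were other scalings (quantile, median centring), a filter on dim probe sets, other variance models (trended and robust, array weights), a replicate block, the methods' t-test, averaging probe sets of a gene, and each array left out in turn.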

Additional observations from a re-analysis of the deposited data

How the results depend on the processing

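The number of probe sets called (2) was 0 with the replicate block and with the methods' t-test, and 0 to 20 with 1 array left out. The number of the 10 ETS genes called (0) was 0 to 1 with 1 array left out, the 1 being Ets1 without Sox9 KO replicate 3. The number at an unadjusted p under 0.05 (2) was 1 with quantile normalization and with the methods' t-test, and 1 to 2 with 1 array left out. Ets1 was at that level in all 14 alternatives, and Elf3, Ehf, Elf1 and Ets2 kept their direction in all 14. Signs turned for Elf5 (-0.035 with median centring, -0.20 to 0.20 with 1 array left out), Etv4 (-0.0846 with array weights, -0.10 to 0.30), Etv5 (-0.48 to 0.10), Spdef (-0.415 to 0.125), Etv6 (-0.045 to 0.245), Csn2 (-0.67 to 2.81), Csn1s2a (-0.79 to 2.02) and Agr2, a reported SPDEF target (-0.30 to 0.02), where the ranges leave out 1 array. The mean over probe sets changed no ETS gene, since each had 1. The cause of these changes was not tested. Deviations from the group mean, over all probe sets, correlated at 0.119, -0.034 and 0.033 for arrays with the same replicate number. The highest correlation was between WT replicate 2 and Sox9 KO replicate 3 (0.145). With 3 arrays in a group, these values do not show whether the numbers pair the animals. Negative controls had medians of 5.05, 4.94 and 4.55 on WT replicates 1 to 3. On Sox9 KO replicates 1 to 3 they were 4.76, 4.73 and 4.38. With the replicate block the unadjusted p of Ets1 was 0.00299 and that of Elf3 was 0.0226 in limma.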
